A study of Mus musculus with 8 samples.

Results

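Smooth muscle cells, contractile myofibroblasts and interstitial cells of Cajal are the motor and pacemaker cells of the colon wall, and 10 genes by which they are usually recognised were followed here through colon assembloid cultures. The genes were Acta2, Tagln, Myh11, Actg2, Des, Cnn1, Tpm2 and Mylk of the contractile apparatus, and Ano1 and Kit of the Cajal cell. They were chosen by name, were all found, and are 10 of the 32285 genes in the count matrices. Assembloids are cultures in which colon epithelial organoids are mixed with colon stromal cells in Matrigel. The series held 8 single-cell libraries of mouse colon in 4 groups of 2: stromal cells of assembloids, epithelial cells of assembloids, epithelial cells of organoids grown without stroma, and epithelial cells of colon tissue. All cells came from male C57BL/6 mice, 6 to 12 weeks old, with no transgene or treatment named for these libraries, and the stromal libraries were the EpCAM-negative cells of assembloids from 2 mice. The stromal cells had been cultured on plates before assembly, and assembloids grew without the surrogate Wnt, CHIR-99021, R-spondin 1 and noggin that organoids received. Each comparison of assembloids with organoids or tissue therefore also spans a difference in medium or in culture itself. The 2 libraries of each group are biological replicates by the study's description. Each p-value weighs a difference against the spread between replicate libraries, which was estimated from all groups of a fit together.

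Contraction of smooth muscle rests on filaments of smooth muscle actin that slide along smooth muscle myosin when myosin light chain kinase phosphorylates the myosin. Many of the genes are driven by serum response factor with its partners myocardin and the myocardin-related factors, through a DNA element called the CArG box. Myofibroblasts, fibroblasts that gain contractile filaments, share the actin and transgelin of muscle but usually lack its late genes such as smooth muscle myosin and desmin. Cajal cells lie between muscle and nerve, depend on the receptor KIT, and use the calcium-gated chloride channel ANO1 to set the slow waves of the gut; KIT is also carried by mast cells, melanocytes and some secretory epithelial cells of the colon, and ANO1 by several epithelia.

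Between 36970661 and 187583982 UMIs, each the count of 1 captured RNA molecule, lay in the cells that passed in each library. Levels are given as CPM, the UMIs of a gene for every 1000000 UMIs of the library or cell class. The stromal libraries held 9020 and 9048 such cells at a median of 15448.5 and 13246 UMIs. The 2 epithelial libraries of assembloids stood apart from each other, with 29410 cells at a median of 3468 UMIs in library 1 and 7722 cells at 13260.5 in library 2. At most 0.980% of the barcodes of a library were shared with another library. The stromal matrices were written by Cell Ranger 6.0.1 and all epithelial matrices by Cell Ranger 7.1.0, versions that differ in whether intronic reads are counted by default, so a difference between stroma and epithelium cannot be told apart from a difference in counting. Against the label, a cluster of squamous basal epithelial-like cells led by Krt15 and Krt14 held 915 and 83 cells of the stromal libraries. At a finer resolution the squamous cluster held 853 and 50 cells, and a separate epithelial-like cluster led by Agr2 and Lgals4 held 55 and 30. Squamous levels below come from the main resolution, at which no such epithelial-like cluster stood apart. Fibroblast-like cells made up 7 of the 12 stromal clusters (7691 and 8588 cells) and 1 of the 7 clusters of the assembloid epithelial libraries (3345 and 669 cells).

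The genes lay on 8 chromosomes of the mouse genome build GRCm38 (mm10), as placed by GENCODE M21. Acta2 spanned chromosome 19, 34241090 to 34255590, on the minus strand. Myh11 (14194535 to 14291372, minus strand) and Mylk (34745210 to 35002420, plus strand) were both on chromosome 16, and Tagln (45929619 to 45936058, minus strand) and Cnn1 (22099216 to 22109630, plus strand) both on chromosome 9. Actg2 lay on chromosome 6, 83512905 to 83536265, and Tpm2 on chromosome 4, 43514711 to 43523765, both on the minus strand. Des lay on chromosome 1, 75360329 to 75368579, and Kit on chromosome 5, 75574916 to 75656722, both on the plus strand, and Ano1 on chromosome 7, 144588549 to 144751974, on the minus strand.

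The promoter of Acta2 is shown because Acta2 was the gene around which the other contractile genes were counted cell by cell. The 150 bases run from chr19:34255374-34255523 on the minus strand of GRCm38.p6, taken from RefSeq. Capitals mark each CArG box that a search of both strands found with 1 mismatch allowed. The mismatch could only be a G or C within the run of A or T between the outer CC and GG. Mismatches in the CC or GG were not searched for.
Acta2 promoter: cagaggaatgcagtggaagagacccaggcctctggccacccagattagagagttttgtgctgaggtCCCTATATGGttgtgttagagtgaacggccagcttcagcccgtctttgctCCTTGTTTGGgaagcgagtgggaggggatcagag
These boxes began 84 and 34 bases before the RefSeq start that the promoter table uses, which lies inside the longer GENCODE span given above. At least 2 such boxes were present in 0.822% of all 32851 promoter windows of 300 bases, at least 1 in 9.98%, and a box with no mismatch in 1.63%. Of the 10 genes, 7 had a promoter entry, and none of these held a box with no mismatch. The other 6 (Des, Cnn1, Tpm2, Mylk, Ano1 and Kit) held no box with 1 mismatch of this kind either. A match is a run of letters and not a measured site, and no factor binding was measured in these libraries.

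Across whole libraries, the contractile genes were mostly higher in the stromal than in the epithelial libraries of assembloids, and Ano1 was lower. Of the 10 genes, 5 were higher (Acta2, Actg2, Des, Tpm2 and Mylk), 1 was lower (Ano1) and 4 did not pass (Tagln, Myh11, Cnn1 and Kit), by edgeR's quasi-likelihood test on summed UMIs at an adjusted p threshold of 0.05. Over all 20841 genes tested 72.5% passed, 38.9% as higher and 33.6% as lower in stroma, so the 6 calls among 10 genes lay below the share of all genes. The median difference on the log2 scale was 1.28 over the 10 genes and 0.18 over all genes tested. In bulk sums of this kind fewer cells of a type and less RNA per cell cannot be told apart. With 2 libraries on each side, the smallest p that exact permutation can reach is 0.333, so it was not used for calls.

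Acta2, the smooth muscle alpha-actin, stood at 83.5 and 77.6 CPM in the stromal libraries and at 8.69 and 19.4 in the assembloid epithelial libraries. The groups did not overlap, as for 9 of the 10 genes and for 86.0% of all genes tested. The difference was 2.79 on the log2 scale (SE 0.33, adjusted p = 0.000108, edgeR). Actg2, the smooth muscle gamma-actin, stood at 7.64 and 6.81 in stroma and at 2.10 and 2.28 in assembloid epithelium, a log2 difference of 1.95 (SE 0.26, adjusted p = 0.000191, edgeR). In organoids and tissue both actins were low, with Acta2 between 0.0811 and 0.170 and Actg2 between 0.0853 and 0.616 CPM.

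Tpm2, a tropomyosin of contractile filaments, stood at 305 and 197 CPM in stroma and at 51.8 and 56.1 in assembloid epithelium. Organoids were at 30.8 and 34.6 and tissue at 1.19 and 1.54, so all 4 groups were apart from one another. The stroma stood above assembloid epithelium by 2.45 on the log2 scale (SE 0.26, adjusted p = 5.34e-05, edgeR). Mylk, the kinase that phosphorylates the myosin light chain, stood at 64.3 and 72.0 in stroma, at 14.4 and 11.99 in assembloid epithelium, at 1.04 and 1.97 in organoids and at 23.6 and 21.6 in tissue. Its difference between stroma and assembloid epithelium was 2.59 on the log2 scale (SE 0.25, adjusted p = 3.39e-05, edgeR), and here tissue lay above the assembloid epithelium.

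Des, the intermediate filament protein of muscle, stood at 12.8 and 5.86 CPM in stroma and at 0.204 and 0.505 in assembloid epithelium. The log2 difference was 5.01 (SE 0.54, adjusted p = 6.4e-05, edgeR). In organoids 2 and 1 UMIs were counted in all, and in tissue 1 and 0. For the 0, the floor of 3 counts is 0.0811 CPM and the exact 95% Poisson interval ends at 0.0998.

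The other contractile genes did not pass between the assembloid fractions. Tagln, transgelin, an actin-binding protein of muscle and myofibroblasts, stood at 29.7 and 18.2 CPM in stroma and at 14.7 and 22.6 in assembloid epithelium, and its groups overlapped (log2 difference 0.61, SE 0.28, adjusted p = 0.074, edgeR). Myh11, the smooth muscle myosin heavy chain, stood at 1.06 and 1.12 in stroma and at 2.12 and 1.30 in assembloid epithelium (log2 difference −0.45, SE 0.42, adjusted p = 0.349, edgeR). Cnn1, the calponin of differentiated smooth muscle, stood at 0.853 and 0.637 in stroma and at 0.584 and 0.581 in assembloid epithelium (log2 difference 0.58, SE 0.38, adjusted p = 0.198, edgeR). Within the assembloid epithelial libraries, fibroblast-like cells held 77.1% and 96.4% of the Tagln UMIs and 81.6% and 91.3% of the Cnn1 UMIs. They held 11.5% and 35.7% of the Myh11 UMIs, and 8.11% and 6.99% of all UMIs. When fibroblast-like cells of stroma were set against epithelial-like cells of the assembloid epithelial libraries, an alternative added after the data were seen, Tagln differed by 4.20 (adjusted p = 0.000105, edgeR) and Cnn1 by 3.67 (adjusted p = 0.000162, edgeR). Tagln also passed without stromal library 2 (0.93, adjusted p = 0.0167, edgeR) and without the squamous cluster (0.74, adjusted p = 0.0434, edgeR).

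Ano1 and Kit, the Cajal cell pair, had the opposite order. Ano1 stood at 5.11 and 0.558 CPM in stroma, at 28.6 and 29.9 in assembloid epithelium, at 43.3 and 73.2 in organoids and at 163 and 151 in tissue. Every group of epithelial libraries lay above both stromal libraries, and the difference between stroma and assembloid epithelium was −3.14 on the log2 scale (SE 0.76, adjusted p = 0.00543, edgeR). The size depended on the stromal library, at −5.47 without library 1, −2.28 without library 2 and −5.65 without the squamous cluster. Kit stood at 0.185 and 0.329 in stroma, at 0.369 and 0.792 in assembloid epithelium, at 0.917 and 1.85 in organoids and at 68.3 and 59.2 in tissue. Neighbouring groups did not overlap for Kit, yet the step from assembloid epithelium to stroma did not pass (−0.90, SE 0.40, adjusted p = 0.0695, edgeR). It passed with DESeq2 (−1.18, adjusted p = 0.00947), with no filter on low counts (−1.23, adjusted p = 0.00649, edgeR), between fibroblast-like and epithelial-like cells (−1.82, adjusted p = 0.00256, edgeR) and without stromal library 2 (−1.35), assembloid epithelial library 1 (−1.28) or organoid library 1 (−1.22).

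**Figure D1:**
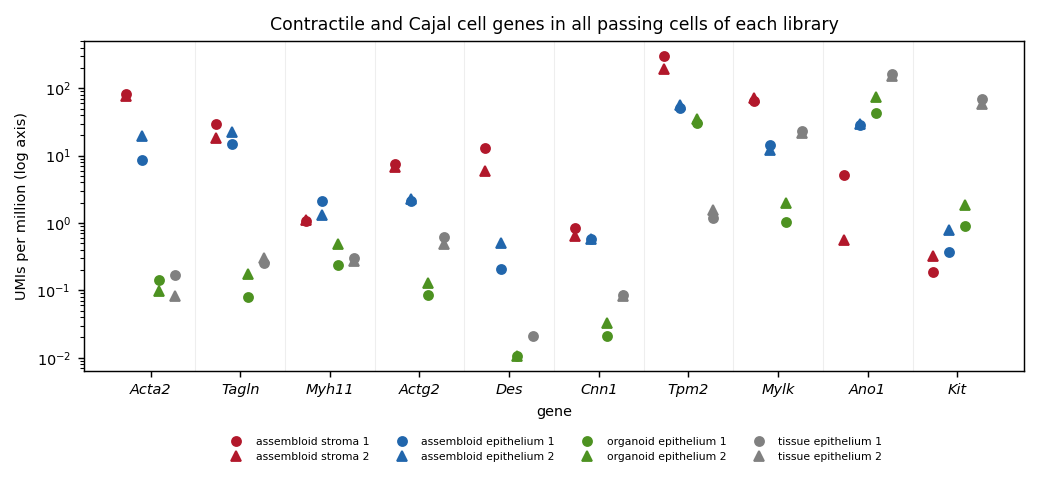
CPM (log axis) of the 10 genes in each of the 8 libraries, with 1 point per library; a library at 0 is not drawn, as for Des in tissue library 2. Acta2, Actg2, Des, Tpm2 and Mylk are above the assembloid epithelium in both stromal libraries, Tagln overlaps, and Ano1 and Kit climb from stroma to tissue.

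A list of 28 partner genes of the apparatus and its regulators held none of the 10. Of 27 tested, 15 were higher in stroma, 5 were lower and 7 did not pass, with a median of 1.20 on the log2 scale against 0.18 over all genes tested. Over all genes 72.5% passed, 38.9% as higher, so the share of partners that passed was near that of all genes. The highest were Tgfb1i1, a focal adhesion co-activator (4.35, from a mean of 3.86 to 78.6 CPM), Cald1, caldesmon (3.91), and Cnn3, the acidic calponin (3.75). The lowest that passed were Myocd, myocardin itself (−2.38, at means of only 0.0766 and 0.403), Vcl, vinculin (−1.90), and Mrtfa (−1.30). These means of partners are on library sizes scaled by TMM, edgeR's normalization, and not on the raw totals used for the CPM of the 10 genes. With DESeq2's size factors the counts were 12 higher and 6 lower, and with no filter 12 and 7. These scalings moved the median of all genes by −0.28 and −0.33, and none of the 10 genes changed direction under either.

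Within the stromal libraries, most UMIs of the contractile genes lay in the fibroblast-like cells, and no cluster could be named contractile. Clusters were built without the 10 genes, so that their levels in each cluster were not an outcome of their own use. Fibroblast-like cells held 97.0% and 99.4% of the Acta2 UMIs, 96.0% and 98.7% of Tagln, 97.6% and 98.9% of Des and 96.3% and 98.4% of Mylk, where they held 82.0% and 94.9% of all UMIs. Tpm2 was the exception in library 1, with 68.8% in fibroblast-like and 30.2% in squamous cells, and its level was 598 and 295 CPM in the squamous cluster against 256 and 200 in fibroblast-like cells. None of the 12 clusters met the rule for a contractile name, and none did with the 10 genes kept, with all contractile partners also dropped, or at a finer resolution that gave 15 clusters, where Acta2 was, however, among the leading genes of a fibroblast-like cluster led by Saa3 and Cxcl5. That rule asks for a mean difference of at least 2 on the log2 scale from the other clusters, so contractile genes shared by the fibroblast-like clusters would not give a name by it. The mean difference of the contractile partners from the other clusters was −0.46 to 0.22. The study names a myofibroblast cluster, positive for Acta2 and Tagln, among its stromal cells. By staining it also places myofibroblasts with alpha-SMA mainly in the outer layer of assembloids. Clusters were rebuilt here, and the naming rule used the contractile partners, a list without Acta2 and Tagln. Names may differ from those of the study for either reason, and which of them was not tested.

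Acta2 was found more often in fibroblast-like cells than in classes that should lack it. At least 1 Acta2 UMI was found in 39.2% (95% interval 38.1 to 40.3) and 33.8% (32.8 to 34.8) of these cells, at a median of 15055 and 13301.5 UMIs, and in 4.27% and 1.96% of glia-like cells, at 7153 and 7566 UMIs. It was found in 8.54% and 5.38% of neuron-like cells and in 15.4% and 7.23% of squamous cells. After each cell was thinned to 2000 UMIs the shares were 11.02% and 9.12% in fibroblast-like cells, 1.77% and 0% in glia-like cells, where 0 of 95 cells allows up to 3.16%, 0.823% and 1.13% in neuron-like cells and 1.75% and 0% in squamous cells, where 0 of 83 cells allows up to 3.61%. Intervals are exact binomial ones, the limits given for 0 cells are those of 3 counts, and both cover counting error only.

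Among the 7 fibroblast-like clusters, the contractile genes did not all follow the same order. Acta2 was at its highest mean in the cycling cluster 2, at 138 and 127 CPM, with 104.9 and 118 in cluster 5, led by Ccl12, Bmp2, Bmp5 and Bmp7, and 104.6 and 73.5 in the largest cluster, 0. At the finer resolution its highest mean, 149.4 ± 18.3 (SD, n = 2), was instead in the cluster led by Saa3 and Cxcl5, which was not a cycling one. Its lowest levels were 39.5 and 19.9 in cluster 3, led by Rbp4 and Hmox1. Cluster 7, led by the interferon-induced genes Cxcl10 and Ifit3, was the least even, at 174 and 48.1, so its place in this order rests on library 1. Tagln was high in the cycling cluster (46.3 and 41.6) and in cluster 4, led by Spp1, Crabp1 and Mfap5 (47.7 and 37.2), and low in cluster 1, led by Adamdec1 and Car3 (7.88 and 6.24), and in cluster 5 (8.41 and 5.95). So in both libraries cluster 5 had much Acta2 and little Tagln beside it. The list of cycling genes stood above the other clusters in cluster 5 too, by 1.65 on the log2 scale against 2.19 in cluster 2, and below them in the other 5 fibroblast-like clusters; its part in these levels was not tested.

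Myh11 and Des had their highest means in other clusters than Acta2. Myh11 was highest in cluster 1, at 3.87 and 3.59 CPM, followed by cluster 5 at 2.50 and 2.27, with 0.446 and 0.226 in cluster 2, where Acta2 was highest. Cluster 1 is the fibroblast-like cluster whose 10 leading genes held a contractile partner, Ppp1r14a, an inhibitor of myosin phosphatase, and no gene of the fibroblast list. Des was highest in cluster 4, at 63.5 and 17.5, with a mean of 40.5 ± 32.5 (SD, n = 2), and the other fibroblast-like clusters were between 2.22 and 32.3. Actg2, like Acta2, had its highest mean in the cycling cluster, at 12.8 and 14.5, and was at 22.3 and 4.85 in cluster 7. Mylk lay between 52.7 and 96.9 over these clusters and Tpm2 between 147 and 321. Outside them, Mylk was at 135 and 156 in the unnamed cluster 11 of 26 and 16 cells, led by Chgb and Chga. Cnn1 stayed at or below 1.63 in all of them.

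**Figure D2:**
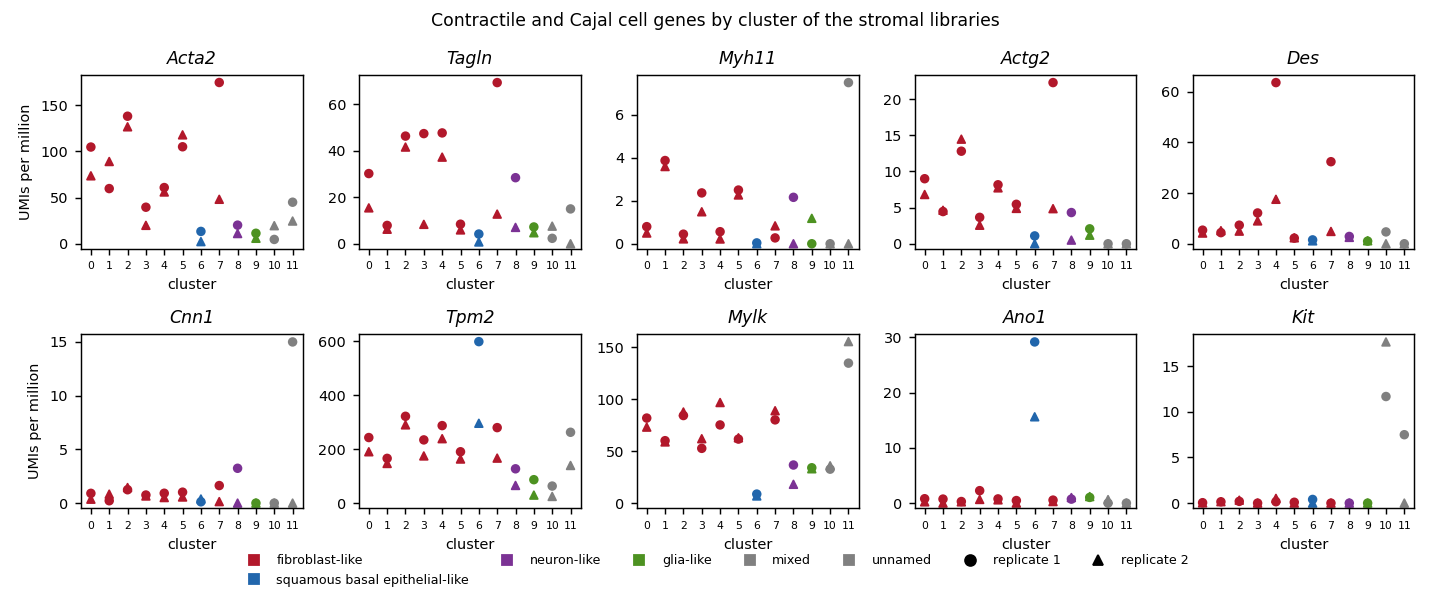
CPM of the 10 genes in the 12 clusters of the stromal libraries, with 1 point per library and cluster and colours for the cluster names. Among fibroblast-like clusters Acta2 and Tagln have their highest means in cluster 2, Des in cluster 4 and Myh11 in cluster 1, Ano1 peaks in the squamous cluster 6, and Kit in cluster 10, which held endothelial and macrophage genes.

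Cells with the late muscle genes together were rare. Of Myh11, Actg2, Des and Cnn1, at least 3 were detected in 16 cells of stromal library 1 (0.177%) and 14 of library 2 (0.155%), in 4 and 5 cells of the assembloid epithelial libraries, and in none of the organoid and tissue libraries. All 8 contractile genes were found in 3 and 1 stromal cells. The cell with the most Myh11 in stromal library 2 carried 9 Myh11, 68 Acta2, 53 Tagln, 13 Actg2 and 8 Cnn1 UMIs among 7647, with 0 of Des and 44 of the fibroblast list. The cell with the most Myh11 in stromal library 1 carried 8 Myh11, 12 Acta2 and 2 Actg2 UMIs among 30728. It held 0 of Tagln, Cnn1 and Des and 181 of the fibroblast list.

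Cell by cell, Acta2 was found together with the other contractile genes to unequal degrees. In fibroblast-like cells thinned to 2000 UMIs, Tagln was found with Acta2 in 114 and 74 cells where independent detection would give 29.4 and 14.1, a ratio of 3.87 and 5.24. The ratio for Actg2 was 4.15 and 4.58, from 48 and 33 cells. Myh11 (3.40 and 2.49) and Cnn1 (3.02 and 4.57) rested on 4 to 6 cells each. Tpm2 was at 1.28 and 1.41 and Mylk at 1.44 and 1.41, nearer to independence, and Des was at 1.01 in library 1 and 2.13 in library 2. These ratios are descriptions over cells of 1 library each, and for Tagln they fell to 2.59 and 3.17 at 5000 UMIs and to 1.68 and 2.03 without thinning.

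The same was seen along the Acta2 level. With fibroblast-like cells thinned to 5000 UMIs, 6000 and 6991 cells held no Acta2 UMI and 139 and 99 held 5 or more. The share with Tagln climbed from 3.97% and 1.92% of cells with no Acta2 UMI, through 9.62% and 5.19% at 1 UMI and 22.4% and 16.3% at 2 to 4, to 58.3% (49.6 to 66.6) and 53.5% at 5 or more. Actg2 went from 1.37% and 1.16% to 28.8% and 37.4%. Of the partners, Myl9, the regulatory light chain of smooth muscle myosin, went from 4.63% and 3.50% to 51.8% and 49.5%. Des went from 4.10% to 5.76% in library 1 and from 1.99% to 8.08% in library 2. Cnn1 went from 0.167% and 0.143% to 4.32% and 6.06%, on 6 cells in each library. Col1a2, a fibroblast collagen, was detected in 98.6% and 99.0% of the cells with 5 or more Acta2 UMIs. Col1a2 is on the list by which clusters were named fibroblast-like, so this share was largely set by the choice of cells. Of the cells with 5 or more Acta2 UMIs, 62 and 41 were in cluster 0 and 38 and 23 in cluster 2, and every fibroblast-like cluster held some.

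**Figure D3:**
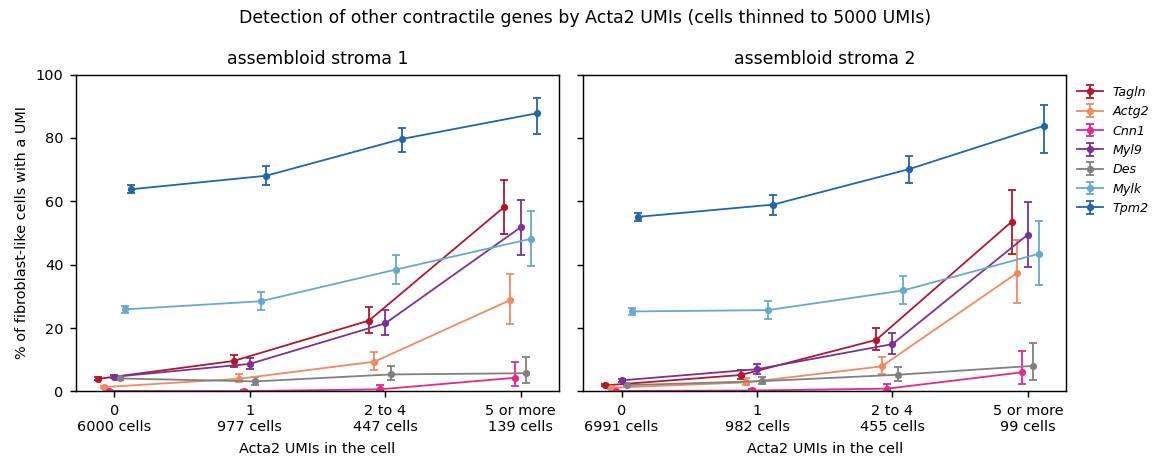
Share of fibroblast-like stromal cells (percent, thinned to 5000 UMIs per cell) with at least 1 UMI of each gene against the number of Acta2 UMIs in the cell, 1 line per stromal library with exact 95% binomial intervals. Tagln, Actg2 and Myl9 climb steeply with Acta2 in both libraries, and Des and Cnn1 climb to at most 8.08%.

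The UMIs of these genes were unevenly spread over cells. The 1% of cells highest in a gene held 29.0% and 25.8% of its UMIs for Acta2, 50.2% and 58.5% for Tagln, 46.9% and 50.6% for Actg2 and 56.1% and 48.8% for Des. For Tpm2 they held 7.72% and 8.44% and for Mylk 10.5% and 9.82%. The deepest 1% of cells held 3.92% and 3.23% of all UMIs. So Tpm2 and Mylk were spread widely over the stroma, while the UMIs of Tagln, Actg2 and Des lay in fewer cells. A gene with few UMIs can reach few cells only, and no share expected at each gene's level was set beside these. Tpm2 had 49300 and 27472 UMIs and Actg2 1235 and 952.

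Over the 24 profiles made by the 12 clusters in 2 libraries, the sum of the 8 contractile genes was most like Steap1 and Gpc4 (Pearson r = 0.88), then Ptges and Hoxa11os (0.86), Hoxa10 and Bri3bp (0.84), Eps8, Nfe2l2 and Hoxd13 (0.83) and Ctps (0.82), among 12996 genes. The sum correlated at 0.95 with Tpm2, at 0.68 with Acta2, at 0.38 with Mylk and at 0.19 with Myh11, so it mainly carried Tpm2. Genes most like Ano1 included Cdcp1 (0.96), Ap1m2, Anxa8 and Lad1 (0.95). Kit was most like Dusp2 (0.96), Emcn, Yes1, Cdh5 and Mmrn2 (0.95), of which Emcn, Cdh5 and Mmrn2 are genes of endothelial cells. Kit itself had only 30 and 46 UMIs in the stromal libraries, of which 5 and 28 lay in the cluster with endothelial and macrophage genes. Its r values therefore rest on few counts. These profiles share libraries and differ in depth, and r is given as a description.

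Fibroblast-like cells were also present in the epithelial libraries of assembloids, and there several contractile genes stood higher than in the stromal libraries. Of the 10 genes, 6 were lower in stromal fibroblast-like cells (Tagln, Myh11, Actg2, Cnn1, Ano1 and Kit), none was higher and 4 did not pass (edgeR's quasi-likelihood test). Over all 17284 genes tested 48.2% passed, 22.1% as higher and 26.2% as lower. The median difference was −1.70 over the 10 genes and 0.03 over all genes. The fibroblast-like cells of the epithelial libraries carried 5420 and 2327 CPM of the epithelial list against 43.9 and 12.1 in the stromal libraries, and 78.6 and 41.0 of the macrophage list against 6.46 and 7.24. The part of these other cell types in the differences was not tested, and the Cell Ranger version cannot be told apart from the library type here either.

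Tagln stood at 34.8 and 18.9 CPM in the stromal and at 140 and 312 in the epithelial libraries, with no overlap, where 79.0% of all genes tested did not overlap (log2 difference −3.002, SE 0.48, adjusted p = 0.0090, edgeR). Cnn1 stood at 0.935 and 0.664 against 5.87 and 7.59 (−3.02, SE 0.34, adjusted p = 0.00519, edgeR). Actg2 stood at 9.01 and 7.17 against 17.5 and 29.4 (−1.47, SE 0.28, adjusted p = 0.0131, edgeR), and Myh11 at 1.23 and 1.17 against 3.01 and 6.62 (−1.92, SE 0.44, adjusted p = 0.0222, edgeR). All 4 genes were higher in both epithelial libraries than in either stromal one. Without cluster 1 of the stromal libraries, left out after the data were seen because of its leading genes, the values were −2.88 for Tagln, −2.98 for Cnn1, −1.40 for Actg2 and −2.44 for Myh11, and no call changed. The call for Myh11 was lost without stromal library 1 (adjusted p = 0.0994, edgeR) or 2 (0.0965), and that for Actg2 without stromal library 2 (0.0675).

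Acta2 did not share this difference past its error. It stood at 98.8 and 81.2 CPM in the stromal libraries and at 76.3 and 253 in the epithelial ones, which lay on either side of them (−0.78, SE 0.52, adjusted p = 0.264, edgeR). It passed as lower in stroma without assembloid epithelial library 1 (−1.34, adjusted p = 0.00827, edgeR) and stood at 0.22 without library 2. Des (15.3 and 6.11 against 1.61 and 6.26), Tpm2 (256 and 200 against 122 and 255) and Mylk (75.5 and 74.7 against 32.0 and 60.7) did not pass either. Des passed as higher in stroma without stromal library 2 (2.08, adjusted p = 0.0358, edgeR), and Tpm2 without assembloid epithelial library 2 (0.88, adjusted p = 0.0293, edgeR), where library 1 left out gave −0.01. Mylk passed as higher without assembloid epithelial library 1 (0.46, adjusted p = 0.0411, edgeR) or 2 (1.21, adjusted p = 0.00613, edgeR). Ano1, at 0.732 and 0.249 against 14.5 and 8.91, differed by −4.57 (adjusted p = 0.00763, edgeR). Kit, at 0.106 and 0.136 against 1.19 and 2.17, rested on 17 and 18 UMIs in the epithelial libraries (−3.69, adjusted p = 0.00741, edgeR), and its call was lost without stromal library 1 (adjusted p = 0.0658, edgeR).

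Of the 28 contractile partners, 2 were higher in stromal fibroblast-like cells (Cnn3, 1.04, and Flna, filamin A, 0.70), 10 were lower and 16 did not pass, where 48.2% of all genes passed, 22.1% as higher and 26.2% as lower. Co-detection with Acta2 was also present in the epithelial libraries. At 2000 UMIs per cell it was 2.87 and 2.23 for Tagln, 3.07 and 2.89 for Actg2 and 4.13 and 3.82 for Cnn1. In their fibroblast-like cells with 5 or more Acta2 UMIs of 5000, which were 32 and 53 cells, 87.5% and 66.0% held Tagln. The share was 20.2% and 18.1% in those with no Acta2 UMI.

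**Figure D4:**
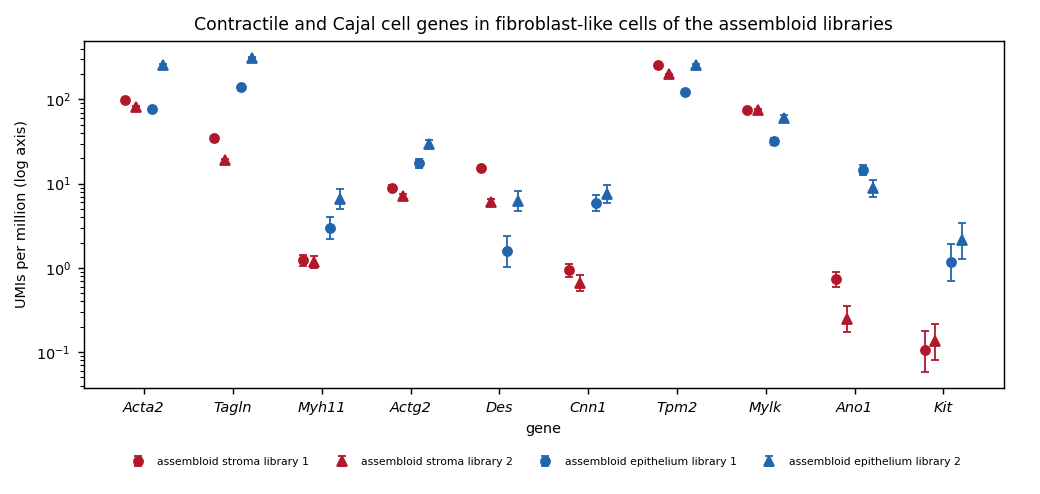
CPM (log axis) of the 10 genes in fibroblast-like cells of the 2 stromal and the 2 epithelial assembloid libraries, 1 point per library with exact 95% Poisson intervals. Tagln, Myh11, Actg2, Cnn1, Ano1 and Kit are higher in both epithelial libraries, and Acta2, Des and Tpm2 overlap.

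In epithelial-like cells of assembloids the contractile genes were counted at low levels and then compared with tissue and with organoids. These comparisons share the assembloid libraries and are given side by side. Of 8 genes tested, 4 were higher than in tissue, 2 were lower and 2 did not pass (background 49.2% of 19125 genes, 26.0% higher and 23.2% lower). Against organoids 6 were higher and 2 were lower (background 52.9%, 28.2% higher and 24.7% lower). Des (9 and 5 UMIs) and Cnn1 (9 and 6 UMIs) were too low to be tested. Not in this class is cluster 0 of the assembloid epithelial libraries, with 10222 and 932 cells (34.8% and 12.1%). It had 7 epithelial genes in at least 25% of its cells but stayed unnamed, at medians of 2548.5 and 1906 UMIs. Cluster 0 met the depth rule for an unnamed cluster in library 2 only, as the library medians were 3468 and 13260.5. All cells of organoids and tissue, however, were used. Acta2 stood in cluster 0 at 4.48 and 2.57 CPM and Tagln at 7.16 and 0.714. With classes set by a gate per cell in place of clusters, Acta2 differed by 5.22 from tissue (adjusted p = 0.00026, edgeR) and by 4.99 from organoids (adjusted p = 0.00022, edgeR).

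Acta2 stood at 2.05 and 1.76 CPM in epithelial-like cells of assembloids. The log2 difference was 4.27 against tissue (SE 0.56, adjusted p = 0.000527, edgeR) and 4.06 against organoids (SE 0.52, adjusted p = 0.000466, edgeR), where no library held more than 27 Acta2 UMIs. Groups did not overlap, as for 82.4% of all genes against tissue and 73.5% against organoids. Tagln stood at 2.31 and 0.875 (2.96 against tissue, adjusted p = 0.00548, and 3.92 against organoids, adjusted p = 0.0014, edgeR). The fibroblast list was higher in these cells too, with 10 of 10 genes above tissue and 8 of 10 above organoids, and none lower. With DESeq2 8 and 7 were higher. Over all genes 26.0% were higher against tissue and 28.2% against organoids by edgeR. For every 1000 UMIs of the fibroblast list there were 13.1 and 30.6 Acta2 UMIs in the epithelial-like, 12.6 and 24.7 in the fibroblast-like and 13.0 and 17.5 in the macrophage-like cells of the same libraries. For Tagln the ratio was 14.8 and 15.2 in epithelial-like and 22.98 and 30.4 in fibroblast-like cells, and for Actg2 3.50 and 4.37 against 2.89 and 2.86. In library 1 the ratio of Acta2 was thus nearly the same in the 3 classes.

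Tpm2, Mylk and Myh11 stood far above that ratio in epithelial-like cells. Tpm2 was at 285 and 743 per 1000 fibroblast-list UMIs in epithelial-like cells against 20.1 and 24.9 in fibroblast-like cells, Mylk at 93.4 and 148 against 5.27 and 5.91, and Myh11 at 13.6 and 15.0 against 0.50 and 0.65. Without the cell with the most UMIs of the gene in each library, Mylk was at 76.8 and 143 and Myh11 at 4.76 and 11.9. Leaving out 1 cell did not take out all such cells. In library 1 as a whole the next highest cell held 217 Mylk UMIs, beside 303 in the cell left out. The 1% of its cells highest in Mylk held 52.8% of the Mylk UMIs. Tpm2 stood at 44.6 and 42.7 CPM in epithelial-like cells, above tissue by 5.40 on the log2 scale (SE 0.25, adjusted p = 9.31e-06, edgeR) and above organoids by 0.57 (SE 0.20, adjusted p = 0.0394, edgeR). Mylk stood at 14.6 and 8.54, which differed from tissue by −0.55 (SE 0.32, adjusted p = 0.186, edgeR) and from organoids by 3.17 (SE 0.35, adjusted p = 0.000258, edgeR). The call of Tpm2 against organoids held in only 6 of 14 alternatives. Among others, it was lost without either assembloid epithelial library, without organoid library 2 and without either tissue library, at differences of 0.46 to 0.67. Mylk passed as lower than tissue without assembloid epithelial library 1 (−1.08, adjusted p = 0.0184, edgeR).

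Myh11 in these cells rested in part on single cells. It stood at 2.12 and 0.865 CPM, with log2 differences of 2.82 against tissue (adjusted p = 0.0057, edgeR) and 2.27 against organoids (adjusted p = 0.00956, edgeR). In assembloid epithelial library 1, 1 cell carried 161 Myh11 UMIs, 43.0% of the library's total and 64.9% of the total in its epithelial-like cells, where Myh11 stood at 0.745 CPM without it. That cell was in an epithelial-like cluster, held 0 UMIs of the other 7 contractile genes, 78 of the epithelial list and 3 of the fibroblast list. Another cell of the library held 303 Mylk UMIs, 11.9% of the library's total, with 195 of the epithelial list and 0 of the other 7 genes. Without the top Myh11 and top Mylk cell of each library, the difference of Myh11 between stroma and assembloid epithelium turned from −0.45 to 0.03, that against tissue fell to 2.21 (adjusted p = 0.0113, edgeR) and that against organoids to 1.67 (adjusted p = 0.0233, edgeR). The call of Myh11 against organoids was lost without organoid library 1 (1.93, adjusted p = 0.082, edgeR).

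Actg2 stood at 0.548 and 0.251 in epithelial-like cells, overlapping tissue at 0.616 and 0.487 (−0.04, SE 0.55, adjusted p = 0.959, edgeR) and above organoids by 2.11 (SE 0.58, adjusted p = 0.0152, edgeR). Its direction against tissue was not stable, as it turned to between 0.11 and 1.10 under 4 alternatives, 2 of which left out tissue library 1 or assembloid epithelial library 2. The call against organoids was lost without assembloid epithelial library 1 (1.35, adjusted p = 0.0767, edgeR), organoid library 1 (1.95) or organoid library 2 (2.20).

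In epithelium Kit and Ano1 were both highest in tissue, and the tissue cells that carried each differed in their other epithelial genes. Ano1 stood at 33.1 and 32.8 CPM in epithelial-like cells of assembloids, below tissue by −1.86 on the log2 scale (SE 0.22, adjusted p = 0.000332, edgeR) and below organoids by −0.63 (SE 0.22, adjusted p = 0.0369, edgeR). Kit stood at 0.334 and 0.653, below tissue by −6.65 (SE 0.36, adjusted p = 1.23e-05, edgeR) and below organoids by −1.30 (SE 0.32, adjusted p = 0.00957, edgeR). Against organoids the call of Ano1 was lost without either assembloid epithelial library, organoid library 2 or either tissue library (−0.70 to −0.44), and that of Kit without assembloid epithelial library 1 (−0.92, adjusted p = 0.0591, edgeR). In tissue, Kit was found in 13.2% and 12.2% of cells thinned to 2000 UMIs and in 19.01% and 21.3% unthinned, and Ano1 in 22.1% and 21.1% thinned and 33.7% and 37.3% unthinned. Thinning left out 2249 and 1539 shallower cells of these libraries.

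Tissue cells with Kit more often carried goblet cell genes. At 2000 UMIs, Muc2, the main mucin of the colon, was found in 92.5% and 93.5% of the 322 and 337 cells with Kit and in 52.1% and 71.7% of the others. How much of the Muc2 in the others was free RNA was not tested. Reg4, a gene of deep crypt secretory cells, was in 50.9% and 57.0% against 23.9% and 36.7%. Krt20 (3.73% and 6.82% against 12.4% and 18.9%) and Car1 (5.59% and 21.7% against 24.9% and 38.7%), genes of mature absorptive cells, were lower in both libraries. Tissue cells with Ano1 had the reverse order, with Krt20 in 23.2% and 26.3% against 7.88% and 15.1% and Car1 in 41.0% and 50.4% against 17.1% and 33.0%. The cultures did not share this order. In the assembloid epithelial libraries Krt20 was in 15.1% and 12.7% of cells with Ano1 against 16.7% and 14.9%. Car1 was in 56.5% and 46.4% against 60.6% and 53.2% there, and in organoids in 8.24% and 3.77% against 9.95% and 5.31%. Within tissue, Ano1 was in 17.7% and 18.4% of cells with Kit and 22.7% and 21.5% of those without. The pair was found together in 57 and 62 tissue cells where independence would give 71.0 and 71.1. In organoids 11 and 26 cells held Kit at this depth, and 72.7% and 50% of them held Spink4, another goblet cell gene, against 2.17% and 7.80% of the others.

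**Figure D5:**
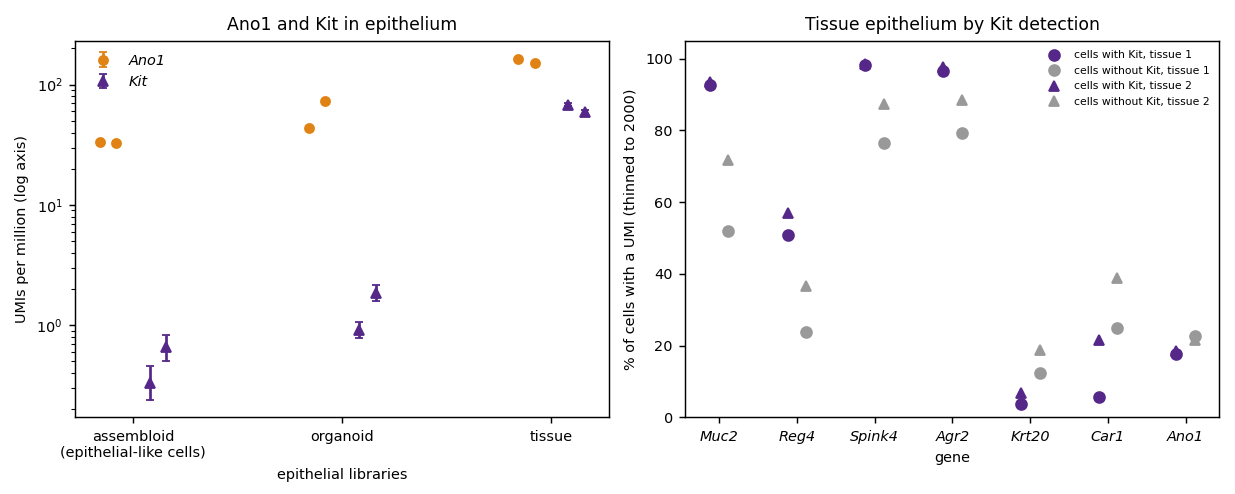
Left, CPM (log axis) of Ano1 and Kit in each epithelial library with exact 95% Poisson intervals; right, share of tissue cells (percent, thinned to 2000 UMIs) with a UMI of each gene among cells with and without Kit, 1 point per library. Both genes are highest in tissue, and Muc2 and Reg4 are higher while Krt20 and Car1 are lower in cells with Kit in both tissue libraries.

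In the stromal libraries neither gene marked a Cajal cell cluster. Without thinning, 4 and 1 stromal cells held both Kit and Ano1, where Ano1 was found in 496 and 56 cells. Of these pairs, 2 and 0 also held Etv1, of the list of other Cajal cell genes. The pair was in 490 and 467 cells of the tissue libraries, which are epithelial. These unthinned counts are not set against independent detection here. Of the Ano1 UMIs, 87.9% and 52.6% lay in the squamous cluster, at 29.2 and 15.6 CPM, and fibroblast-like cells stood at 0.732 and 0.249. This squamous cluster is that of the main resolution. How its Ano1 and Kit UMIs split between the squamous and the epithelial-like cluster of the finer one was not counted. Kit was detected in 27 and 25 stromal cells. It was at 11.7 and 17.6 CPM in the small cluster with endothelial and macrophage genes (25 and 73 cells) and at 0.106 and 0.136 in fibroblast-like cells. Of the Kit UMIs of library 1, 46.7% lay in fibroblast-like cells, 33.3% in the squamous cluster and 16.7% in this small cluster, and of those of library 2, 39.1%, 0% and 60.9%. At least 2 UMIs of the endothelial list were found in 37.0% and 48.0% of cells with Kit and in 12.3% and 8.84% of the others. For the list of other Cajal cell genes the shares were 66.7% and 56.0% against 64.0% and 54.8%. Of the 7 genes of the mast cell list, Cpa3, Tpsb2, Ms4a2 and Fcer1a were at 0 in both stromal libraries, and the summed list stood at 0.686 and 0.286 CPM. Mcpt8 and Mcpt1, protease genes that are not on the list, were among the leading genes of the fibroblast-like cluster 4. Of 7 other Cajal cell genes, 2 were higher in stroma than in assembloid epithelium and 5 were lower, where 38.9% of all genes were higher and 33.6% lower, and both counts were the same with DESeq2 and with no filter.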

How the data were processed

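The authors deposited filtered 10x matrices of whole-number UMI counts per gene and cell, 1 per library, made from 3' v3 libraries. The submitters' processing notes give Cell Ranger 6 and mm10, while the matrix headers give 6.0.1 for the 2 stromal and 7.1.0 for the 6 epithelial libraries; the handling of intronic reads is not given in the sources used here. The 10 genes and all marker lists were chosen with earlier results of these data known.

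The lower limit was 500 detected genes and the upper one 10% mitochondrial UMIs per cell, as in the study's methods; the cells kept were more than the study analysed for both assembloid fractions and fewer for organoids and tissue. No doublet caller was run. Libraries held 36970661 to 187583982 UMIs in these cells, and intervals and floors (3 counts) cover counting error only. Cells were clustered with Seurat 5.3.0 (sctransform 0.4.2, CCA, 30 components, resolution 0.2, 3000 features without the 10 genes), and a cluster took the name of a marker list with at least 3 genes in 5% of its cells and a mean log2 difference of at least 2 from the other clusters. Otherwise it was fibroblast-like with 5 fibroblast genes, or epithelial-like with 3 epithelial genes, in 25% of its cells. A cluster named by the mean difference of a list was called mixed where its 10 leading genes held more of another list. Stromal cluster 1 was named by the 25% rule, so this did not apply to it. A cluster under 1/3 of the library's median UMIs in either library, with no own marker among 10 leading genes, stayed unnamed. Counts were summed per library, or per library and class, and tested with edgeR 4.0.16 (filterByExpr, TMM, quasi-likelihood, Benjamini-Hochberg over all genes tested); DESeq2 1.42.0 was an alternative. The fits were tested on simulated data. Shares and co-detection used cells thinned to 2000 or 5000 UMIs (numpy 2.4.6). Named genes were the 10 genes, the 3 highest and 3 lowest contractile partners that passed, and the genes most like the 8 contractile genes (10), Ano1 and Kit (5 each) over clusters; 1 of these is not reported here. CArG boxes were searched in RefSeq promoters. R 4.3.3 and Python 3.11.15 were used. Alternatives were another normalization, no filter, other cell filters, gates and clusterings, a replicate block, and each library left out.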

Additional observations from a re-analysis of the deposited data

How the results depend on the processing

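Of 514 alternative fits of the 10 genes, 464 kept their direction and their side of the threshold, 23 lost the call, 19 gained it and 8 changed direction; the cause was not tested. Directions changed for Myh11 between stroma and assembloid epithelium without assembloid epithelial library 1 (0.0905, against −0.84 without library 2) and, added after the data were seen, without the top Myh11 and Mylk cells (0.0338). Between fibroblast-like cells they changed for Acta2 without assembloid epithelial library 2 (0.22, against −1.34 without library 1) and for Tpm2 without library 1 (−0.0132). Actg2 against tissue changed without tissue library 1 (0.11), without assembloid epithelial library 2 (0.46, against −0.81 without library 1), at a limit of 5% mitochondrial UMIs (1.10) and with classes from a gate per cell (0.88). With each library left out in turn, the genes called numbered 13634 to 15763 for stroma against assembloid epithelium, 3835 to 9933 between fibroblast-like cells, 5301 to 10094 against tissue and 7776 to 9644 against organoids. Without stromal library 1 or 2 the count between fibroblast-like cells was 3835 or 4422 in place of 8338, and without tissue library 1 or 2 that against tissue was 5301 or 5576 in place of 9416. With classes from a gate per cell, Kit between fibroblast-like cells did not pass (−1.69, adjusted p = 0.140, edgeR), and without a filter on low counts Tpm2 against organoids did not (0.53, adjusted p = 0.0638, edgeR). With 2 libraries a group, a library left out leaves 1, which is assumed to vary like the others.

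Libraries of different groups with the same replicate number did not deviate together across all groups (r of at most 0.0672 in the fit of all 8 libraries, 0.155 between the fibroblast-like cells), so the numbers were not taken as pairs. With the replicate number as a block 15009, 9213, 9203 and 9877 genes were called in the 4 comparisons. The block gained the calls of Kit between stroma and assembloid epithelium (−0.89), of Des (1.57) and Mylk (0.81) between fibroblast-like cells, and lost that of Tpm2 against organoids (0.57, adjusted p = 0.0533, edgeR).

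A level, share or ratio counted as moved when its mean changed by at least the SD between the 2 libraries in the main setting. By this rule Ano1, from 1.46 to 1.68 CPM in its highest cluster at the finer resolution, did not move, at an SD of 1.13. Levels in fibroblast-like cells held in all 30 comparisons with other clusterings. The level in the highest fibroblast-like cluster moved in 2 of 30, at the finer resolution, for Acta2 from 132 to 149.4 CPM and for Tagln from 43.9 to 49.3, and Mylk was highest in a cycling cluster instead of cluster 4 in all 3 other clusterings. With another thinning depth or none 19 of 20 shares of cells and 12 of 16 co-detection ratios moved. The low counts limit what can be said of Cnn1 (138 and 89 UMIs), Myh11 (171 and 156), Kit (30 and 46) and, in stromal library 2, Ano1 (78).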

Other observations

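Genes of cell types that lie beside contractile cells were counted in the same comparisons. Of the pericyte list, the contractile cells that wrap small vessels, all 8 genes tested were higher in stroma than in assembloid epithelium (median log2 difference 3.46, edgeR), and Higd1b was not tested. The summed list stood at 289.5 and 242.7 CPM in stroma and at 21.2 and 26.9 in assembloid epithelium, where 38.9% of all genes tested were higher in stroma. Of other lists, 10 of 10 fibroblast, 6 of 7 trophocyte and 5 of 5 squamous basal genes tested were higher and none lower, 5 of 7 telocyte genes were higher and 1 lower, and 1 of 4 mesothelial genes was higher and 3 lower. With DESeq2 4 of 7 trophocyte genes were higher and 1 lower, and with no filter on low counts 5 and 1. Of the matrix myofibroblast list, which holds genes such as Postn and Tnc of matrix-producing cells, 9 of 11 genes tested were higher, 1 was lower and 1 did not pass (median 2.63). Between fibroblast-like cells of the stromal and the epithelial libraries, 1 gene of the matrix myofibroblast list was higher in stroma, 6 were lower and 4 did not pass (median −0.91), while 1 of 8 pericyte genes was higher and 7 did not pass. The background there was 22.1% higher and 26.2% lower.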
